A study of Mus musculus with 4 samples.

Results

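The genes encoding the subunits of the proteasome were followed in mouse testis, as a list of 38 Psma, Psmb, Psmc and Psmd genes. Of these, 37 had a value of their own among 18820 genes on the arrays. The only probe set of Psma4, which encodes a subunit of the alpha ring, is annotated to AY074887 as well, so Psma4 is not given a value. Psmb2, which encodes a beta subunit, was left out of the list because it lies near Azin2. Genes measured by more than 1 probe set are represented by the brightest of them on average.

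Total testis RNA of adult mice was hybridised to 4 arrays of the Affymetrix Mouse Gene 1-1-ST type, of which 2 held Azin2 KO samples and 2 held WT samples. Every sample was a pool from 3 animals. KO mice were homozygous for a β-Geo cassette placed between exons 4 and 5 of Azin2, on a C57BL/6 mixed background. The study describes the allele as hypomorphic, and the start of AZIN2 is fused in it to the lacZ product, so the KO testes also carry this fusion protein. WT mice had the intact gene, and the labels name no treatment. The labels do not tie the animals of a pool to litters or days, so the replicates behind each p-value below are the 2 pools of a genotype. For limma, the spread between pools is combined with a spread shared over all probe sets tested (prior degrees of freedom 2.96).

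The proteasome is the protease that degrades ubiquitin-tagged proteins in the cytosol and nucleus. Its 20S core is a barrel of alpha and beta rings, with the proteolytic sites in 3 of the beta subunits, and the 19S particle binds, unfolds and feeds the substrate. Cells exposed to interferon replace the catalytic subunits with those of the immunoproteasome, and spermatocytes and spermatids carry PSMA8 largely in place of PSMA7, as the spermatoproteasome. The proteasome is tied to polyamines through ornithine decarboxylase (ODC), which antizymes deliver to it without ubiquitin. AZIN2 is an inhibitor of antizymes, and the comparison asks whether the mRNA of the subunits differed where Azin2 was disrupted.

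The promoters of genes from both catalytic groups are shown because the comparison of immunoproteasome with constitutive subunits rests on them. PSMB8 takes the place of PSMB5, and PSMB9 that of PSMB6. Each sequence is the RefSeq window of GRCm38.p6 from 250 bases before the gene's start to 50 after it, read 5′ to 3′ on the strand of the gene. Capitals mark every match to any of the 10 motifs given below. The positions are chr14:54617946-54618245 on the minus strand for Psmb5, chr17:34197945-34198244 on the plus strand for Psmb8, chr11:70525107-70525406 on the plus strand for Psmb6 and chr17:34187281-34187580 on the minus strand for Psmb9.
Psmb5: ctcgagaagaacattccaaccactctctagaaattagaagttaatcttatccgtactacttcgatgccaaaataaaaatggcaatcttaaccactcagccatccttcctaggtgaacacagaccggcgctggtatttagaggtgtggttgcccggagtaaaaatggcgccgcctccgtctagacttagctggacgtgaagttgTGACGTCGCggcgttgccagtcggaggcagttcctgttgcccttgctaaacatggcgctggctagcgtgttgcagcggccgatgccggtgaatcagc
Psmb8: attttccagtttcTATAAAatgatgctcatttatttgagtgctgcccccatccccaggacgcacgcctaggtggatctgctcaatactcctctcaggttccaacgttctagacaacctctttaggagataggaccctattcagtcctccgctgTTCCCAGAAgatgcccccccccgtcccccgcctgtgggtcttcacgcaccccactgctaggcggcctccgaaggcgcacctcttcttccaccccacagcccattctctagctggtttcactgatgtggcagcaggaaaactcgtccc
Psmb6: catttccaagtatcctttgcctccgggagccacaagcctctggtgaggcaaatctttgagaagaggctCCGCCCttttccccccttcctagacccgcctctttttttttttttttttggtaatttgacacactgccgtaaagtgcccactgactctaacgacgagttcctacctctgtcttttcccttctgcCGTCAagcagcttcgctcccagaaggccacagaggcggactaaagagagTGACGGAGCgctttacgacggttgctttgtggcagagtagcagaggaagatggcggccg
Psmb9: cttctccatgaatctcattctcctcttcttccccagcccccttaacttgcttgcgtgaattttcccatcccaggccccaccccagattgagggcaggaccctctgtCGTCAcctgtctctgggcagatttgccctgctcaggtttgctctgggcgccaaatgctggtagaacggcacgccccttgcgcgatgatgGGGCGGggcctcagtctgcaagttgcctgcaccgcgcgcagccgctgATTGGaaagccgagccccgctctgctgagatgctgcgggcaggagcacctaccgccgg

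The windows of Psmb5 and Psmb6 each held TGACNNNGC, the antioxidant response element that NFE2L1 and NFE2L2 recognise, at 47 and 9 bases before the start. Both matches overlap TGACG, the core of the cyclic AMP response element. The window of Psmb6 also held TGACG on the opposite strand, 58 bases before the start, and GGGCGG, the GC box, on that strand, 182 bases before it. The window of Psmb8 held TTCNNNGAA, the STAT palindrome, 97 bases before the start, and TATAAA 237 bases before it. That of Psmb9 held GGGCGG 55 bases before the start and, on the opposite strand, CCAAT 8 and TGACG 144 bases before it. None of the 4 held GAAANNGAA, the repeat bound by interferon regulatory factors, in these windows.

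RefSeq gave 34 windows for 32 of the 38 genes, and the 10 motifs were searched on both strands in them and in all 32851 windows. The motifs, and the 4 genes shown, were chosen with the matches known, so the shares are descriptions. TGACNNNGC was in 5 of the 34 windows against 12.4% of all windows, GGGCGG in 19 against 35.7%, and CCAAT in 13 against 37.4%. GAAANNGAA was in 5 against 8.56%, TTCNNNGAA in 2 against 8.30%, and TATAAA in 4 against 13.6%. TGACG was in 15 against 20.8%, TGACGTCA, which holds it, in 0 against 1.79%, and GCGCATGCG, the element of nuclear respiratory factor, in 1 against 1.75%. CCGGAAG, the ETS element, was in 11 against 8.86%. The genes without a window are Psma8, Psmb1, Psmb7, Psmc3, Psmd3 and Psmd7.

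The targeted gene was examined first. Azin2 had a normalized log2 signal of 7.36 and 7.14 on the KO arrays and 10.16 and 10.00 on the WT arrays. The KO arrays lay below both WT arrays, and the signal fell by 2.83 on the log2 scale (SE 0.10, n = 2 per genotype, adjusted p = 0.025, limma). Azin2 was the one probe set of 23099 that passed an adjusted p of 0.05 (0.00433%). The call was lost, at the same fold, with all probe sets of the table in the fit (adjusted p = 0.0707). At that fold it was also lost with the methods' t-test (adjusted p = 0.868). The methods do not tie that test to the arrays, so the call lost there is not one the study made with it. It was also lost without WT replicate 1 (adjusted p = 0.294) and without WT replicate 2 (adjusted p = 0.232), where the fold stayed near the same size (-2.75 and -2.91). Transcripts of germ cells and somatic cells of the testis were present, with Prm1 of spermatids and Sycp3 of spermatocytes well above the array median, and Cyp17a1 of Leydig cells and Sox9 of Sertoli cells above it as well. In bulk testis, fewer cells of a type and less RNA per cell cannot be told apart.

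Most subunit genes gave a signal above that of the typical probe set. A signal above the median of the array, which lay between 6.08 and 6.11, was found on all 4 arrays for 35 of the 37 genes. The exceptions were Psmb8 and Psmb11, below the median on all 4 arrays. That median was taken over all 35556 probe sets, also those not paired with a gene. The mean signal of 33 of the 37 genes lay above the median of the probe sets paired with a gene. The share of all probe sets above the array median was not computed. The count of 35 is thus not read as particular to the subunits. Psmb11 encodes the catalytic subunit of the proteasome of the thymic cortex, and Psmb8 a catalytic subunit of the immunoproteasome. The signals of different genes come from different probes, so they are set here against these medians and not against one another.

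**Figure D1:**
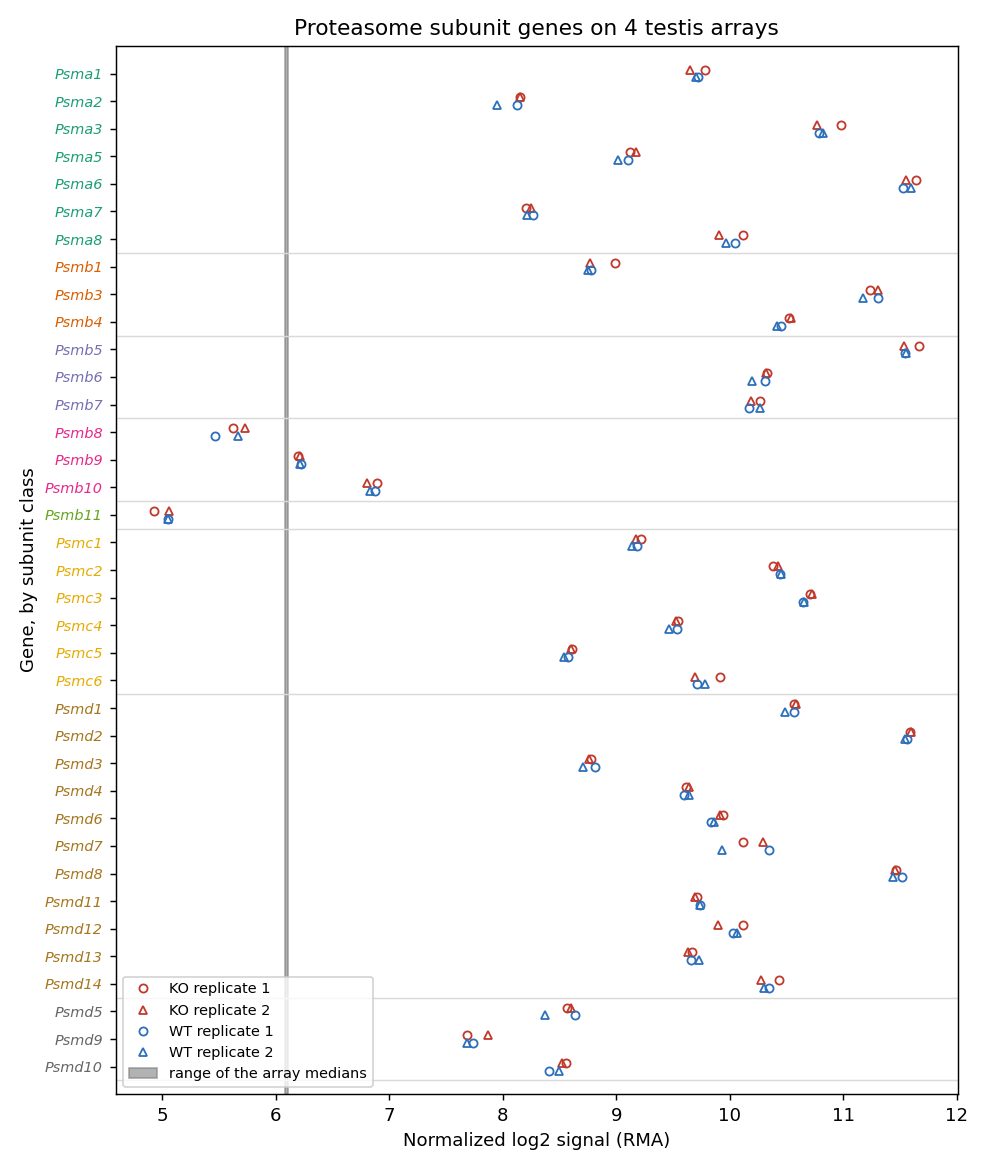
Normalized log2 signal (x axis) of the 37 proteasome subunit genes (y axis, grouped by subunit class) on each array, with KO in red, WT in blue, circles for replicate 1 and triangles for replicate 2. The grey band is the range of the array medians, 6.08 to 6.11. Signals of Psmb8 and Psmb11 lie left of the band, and for most genes the KO and WT symbols are mixed.

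No subunit gene passed a threshold between KO and WT in limma. Of the 37 genes, 0 passed an adjusted p of 0.05 in limma (lowest adjusted p = 1), and 0 met the study's own threshold, a 1.5-fold difference together with an unadjusted p under 0.05, which 0.0823% of all probe sets met. At an unadjusted p under 0.05 alone the count was also 0 of 37, where 4.10% of all probe sets passed. The lowest unadjusted p was 0.121 in limma, for Psmb4 (log2 fold change 0.091), a structural beta subunit. With the methods' t-test, run on the same values, 3 genes had an unadjusted p under 0.05, as did 1154 of the 23099 probe sets. They were Psmb4, Psmc3 and Psmd11, of which Psmb4 and Psmd11 are named after their values were seen. None of them met the study's threshold, and 0 passed after Benjamini-Hochberg adjustment.

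For each gene taken by itself, the interval gives the range of differences that the fit allows, without adjustment for the number of genes. The estimates ran from -0.06 for Psmb11 to 0.12 for Psma2, or 95.8% to 109% of WT. The 95% confidence interval held 0 for all 37 genes and lay within a fold of 1.5 for all 37. It lay within a fold of 1.2 for 29. The widest was that of Psmd7, which encodes a subunit of the 19S lid, from 79.9% to 137% of WT. Psmd7 had a signal of 10.12 and 10.29 in KO and of 10.35 and 9.93 in WT, so its WT pools differed by 0.42. For 29 of the 37 genes, the difference between the genotypes was smaller than the larger gap between the pools of 1 genotype. The share of all probe sets for which this held was not computed, so the count is not read as particular to the subunits.

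**Figure D2:**
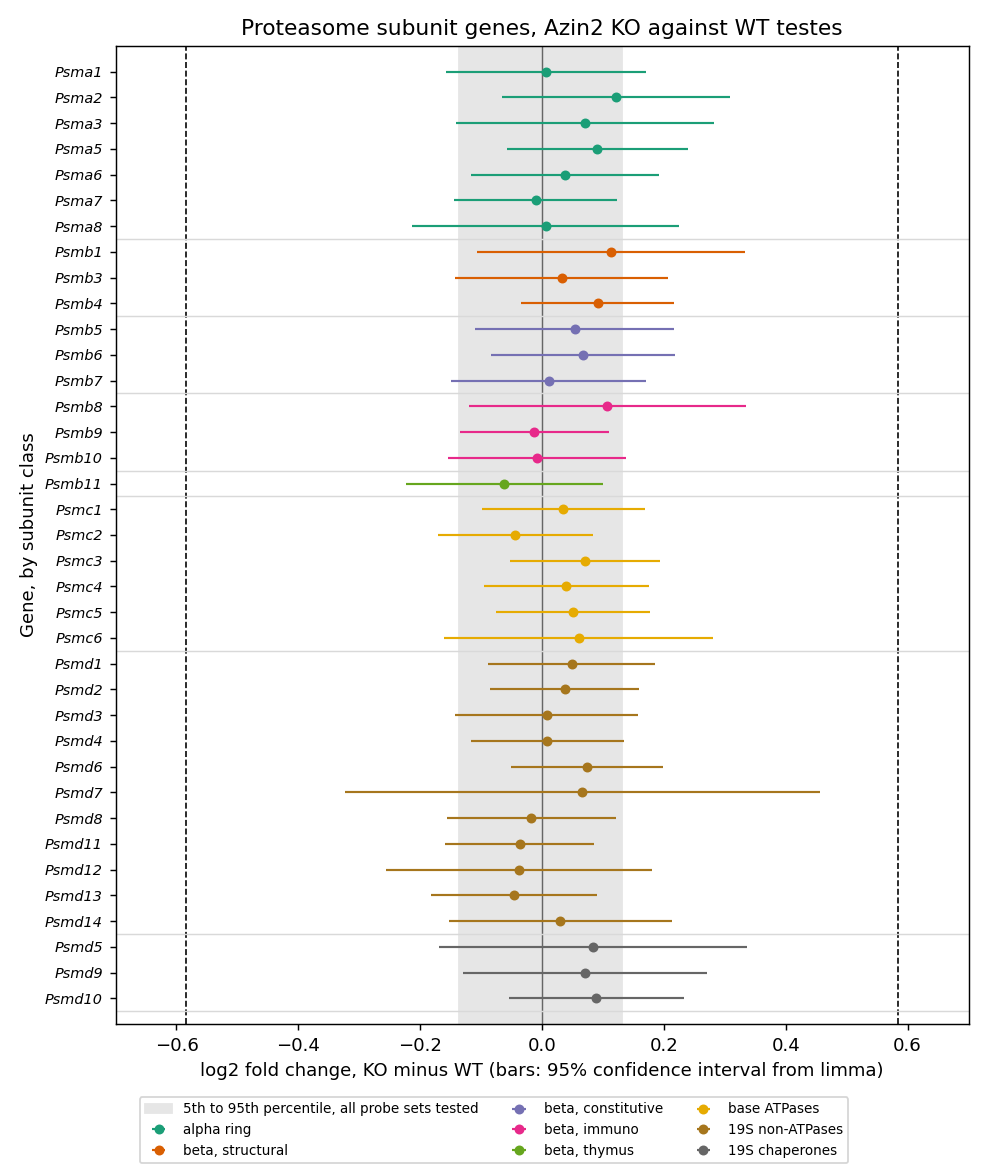
Log2 fold change, KO minus WT (x axis), of the 37 subunit genes (y axis, coloured by class), with points for the limma estimate and bars for its 95% confidence interval. Dashed lines mark a fold of 1.5 and the grey band the 5th to 95th percentile of all probe sets tested, -0.14 to 0.13. Every bar crosses 0 and none reaches a dashed line.

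The genes leaned slightly towards higher values in KO. The median log2 fold change was 0.037 over the 37 genes, against 0.011 over all probe sets tested, and 28 of the 37 lay above 0, against 56.9% of all probe sets. Both KO arrays lay above both WT arrays for 10 genes, where 20.1% of all probe sets did. Those genes were Psma2, Psma5, Psmb4, Psmb6, Psmc3, Psmc5, Psmd1, Psmd2, Psmd6 and Psmd10. For Psma5 and Psmd2 this held on the brightest probe set only, and the genotypes overlapped on the other. Both KO arrays lay below both WT arrays for 3 genes, Psmb9, Psmc2 and Psmd11, where 12.3% of all probe sets did. The lean rested on 1 pool of each genotype: the median was 0.0098 without KO replicate 1 and 0.011 without WT replicate 2. Markers of somatic cells leaned as well. All 8 Sertoli cell genes were above 0, with a median of 0.097, and the 4 Leydig cell genes with values were below 0, with a median of -0.055. The genotypes overlapped in the mean log2 signal of both lists. It was 8.84 and 8.92 in KO and 8.87 and 8.71 in WT for the Sertoli cell genes. For the Leydig cell genes it was 10.45 and 10.75 in KO and 10.72 and 10.62 in WT. None of these 12 genes had an unadjusted p under 0.05 in limma, and their part in the values of the subunits was not tested.

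The same can be read from the arrays one by one. Averaged over the 37 genes, the deviation from each gene's own mean was 0.032 on KO replicate 1 and 0.0036 on KO replicate 2. It was -0.0011 on WT replicate 1 and -0.034 on WT replicate 2. KO replicate 2 and WT replicate 1 thus lay next to each other, and the other 2 arrays stood to either side. The gap between KO replicates was over 0.2 for 5 genes and that between WT replicates for 3. The shares of all probe sets with such gaps were not computed, so these counts are not read as particular to the subunits.

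**Figure D3:**
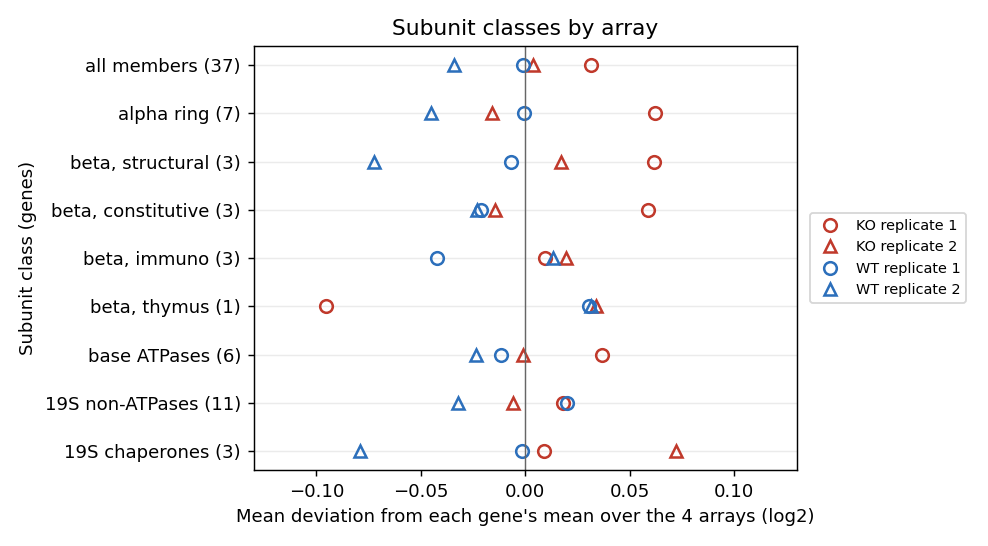
Mean deviation of the log2 signal from each gene's mean over the 4 arrays (x axis), averaged over the genes of each subunit class (y axis, number of genes in brackets), for KO (red) and WT (blue), replicate 1 (circles) and replicate 2 (triangles). KO replicate 1 lies highest for all members at 0.032 and WT replicate 2 lowest at -0.034, and the order of the arrays differs among classes.

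The alpha ring forms the gate of the 20S core. Its 7 measured genes had a median log2 fold change of 0.037, and 6 lay above 0. Psma2 was the highest of all subunit genes, with a signal of 8.16 and 8.16 in KO and of 8.12 and 7.95 in WT. The KO arrays lay above both WT arrays, by 0.12 on average (SE 0.07, unadjusted p = 0.158, limma), with WT replicate 1 just below them. Leaving out WT replicate 1 gave 0.21 (unadjusted p = 0.0335, limma) and leaving out WT replicate 2 gave 0.034 (unadjusted p = 0.639, limma). Psma3, with 3 probe sets, had fold changes of 0.070, 0.045 and 0.088, and KO replicate 1 was the highest array on all 3. For Psma1, Psma5 and Psma6 the differences were 0.0067, 0.091 and 0.037.

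PSMA8 is the germ cell form of the alpha subunit PSMA7. Psma8 had a signal of 10.12 and 9.91 in KO and of 10.04 and 9.97 in WT. Psma7 had 8.21 and 8.25 in KO and 8.26 and 8.21 in WT. The genotypes overlapped for both genes, and the KO pools of Psma8 enclosed the WT pools. The log2 difference Psma8 minus Psma7 on each array was 1.91 and 1.66 in KO and 1.78 and 1.75 in WT. The mean was 1.78 ± 0.18 in KO and 1.77 ± 0.02 in WT (SD, n = 2 each), a change of 0.017 (two-sided exact permutation p = 1 over 6 arrangements, of which the smallest possible p is 0.333). Its sign turned when KO replicate 1 was left out (-0.11). Averaged over marker genes of the cells that carry PSMA8, the signal lay close on the 4 arrays, though some single genes varied more. The mean log2 signal of 10 spermatocyte genes ran from 10.81 to 10.87, and that of 8 spermatid genes with values ran from 11.77 to 11.80. Of the spermatocyte genes, Spo11 had 9.87 and 9.64 in KO and 9.75 and 9.74 in WT. Dmc1 had 8.46 and 8.45 in KO and 8.47 and 8.34 in WT.

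The structural beta genes Psmb1, Psmb3 and Psmb4 had fold changes of 0.11, 0.032 and 0.091, all above 0. Psmb1 had a signal of 8.99 and 8.77 in KO and of 8.78 and 8.75 in WT. Only KO replicate 1 stood above the rest. The difference was 0.22 without KO replicate 2 (unadjusted p = 0.0268, limma) and 0.0016 without KO replicate 1 (unadjusted p = 0.983, limma). Psmb3 had 11.24 and 11.31 in KO and 11.31 and 11.17 in WT, with overlapping genotypes. Psmb4 had 10.52 and 10.54 in KO and 10.45 and 10.42 in WT, with both KO arrays higher. The other probe set of Psmb1 gave 0.012 and lay between 6.26 and 6.32 on the 4 arrays.

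Of the constitutive catalytic subunits, PSMB5 has chymotrypsin-like activity, PSMB6 caspase-like and PSMB7 trypsin-like. Psmb5 had a signal of 11.67 and 11.54 in KO and of 11.55 and 11.55 in WT, a difference of 0.053 (SE 0.06). Psmb6 had 10.32 and 10.32 in KO and 10.31 and 10.20 in WT, a difference of 0.068 (SE 0.06). Psmb7 had 10.27 and 10.19 in KO and 10.17 and 10.27 in WT, a difference of 0.011 (SE 0.06). The genotypes overlapped for Psmb5 and Psmb7, and for Psmb6 WT replicate 2 alone stood lower.

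The immunoproteasome counterparts lay on either side of the array median, and none lay above the median of the probe sets paired with a gene. Psmb8 had a signal of 5.62 and 5.73 in KO and of 5.46 and 5.67 in WT, below the median of every array, and the genotypes overlapped (log2 fold change 0.11, SE 0.09, unadjusted p = 0.28, limma). Psmb9 was just above the array median, at 6.20 and 6.21 in KO and 6.22 and 6.21 in WT, and its KO arrays lay below the WT arrays by 0.013 on average (SE 0.05). Psmb10, also named MECL-1, had 6.89 and 6.80 in KO and 6.87 and 6.83 in WT, a difference of -0.0076. Psmb11 of the thymus form had 4.93 and 5.06 in KO and 5.05 and 5.05 in WT, and KO replicate 1 alone was lower. The arrays carry no detection call in the values used here, so a low signal is not read as absence.

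Set against the constitutive subunits on the same array, the immunoproteasome subunits did not shift beyond the spread between pools. The mean log2 signal of Psmb8, Psmb9 and Psmb10 minus that of Psmb5, Psmb6 and Psmb7 was -4.52 and -4.43 in KO and -4.49 and -4.43 in WT. The change was -0.015 (two-sided exact permutation p = 0.667). Of the single pairs, Psmb8 minus Psmb5 changed by 0.054 (exact p = 0.667) and Psmb10 minus Psmb7 by -0.019 (exact p = 1). For Psmb9 minus Psmb6 the KO arrays, at -4.13 and -4.11, lay below the WT arrays, at -4.09 and -3.98. That change was -0.080 (exact p = 0.333, the smallest that 4 arrays allow). All 5 comparisons, with that of Psma8, had a Benjamini-Hochberg adjusted p of 1 in the exact permutation test.

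**Figure D4:**
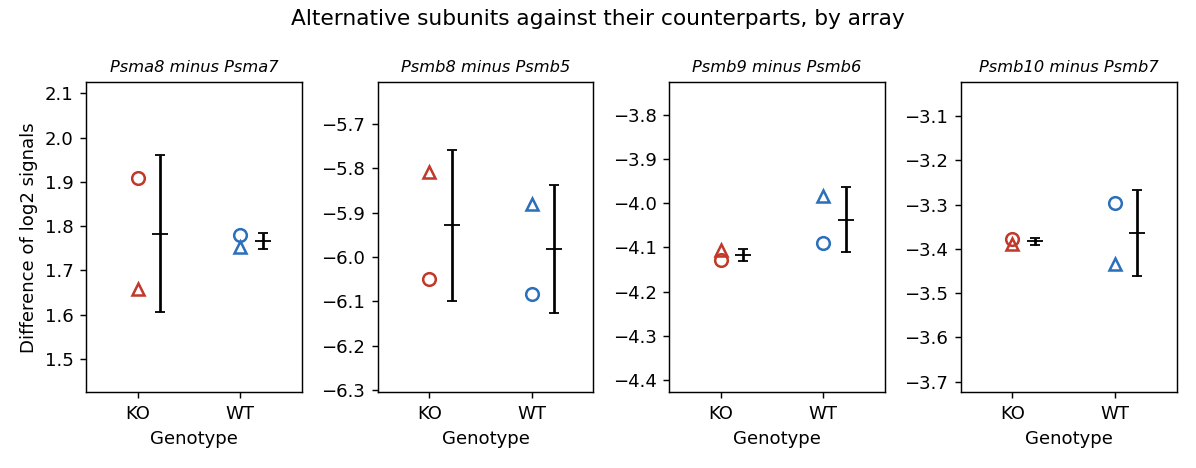
Log2 signal of an alternative subunit minus that of its counterpart (y axes, all of the same length in log2 units) on the KO (red) and WT (blue) arrays, with circles for replicate 1, triangles for replicate 2, and the mean ± SD (n = 2) in black beside them. The genotypes overlap for Psma8 minus Psma7, Psmb8 minus Psmb5 and Psmb10 minus Psmb7, and for Psmb9 minus Psmb6 both KO arrays lie lower.

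Immune cells and interferon can set the level of the immunoproteasome genes, so their markers are given beside them. The mean log2 signal of 11 leukocyte genes was 6.72 and 6.97 in KO and 6.86 and 7.05 in WT, and 9 of the 11 were lower in KO, with a median log2 fold change of -0.15 and 0 at an unadjusted p under 0.05 in limma. Of the 11 genes, 7 were above the array median on all 4 arrays. Ptprc, the defining marker of leukocytes, was below it, at 5.64 to 5.95. The mean over 12 of 14 listed genes of MHC class I and the interferon response was 6.80 and 6.82 in KO and 6.82 and 6.87 in WT. Their median log2 fold change was 0.018, with 7 above 0 and 5 below, from -0.37 for Ifit1 to 0.13 for Irf1. Of those 12, only Ifit1 had an unadjusted p under 0.05 (log2 fold change -0.37, unadjusted p = 0.00706, limma), where 4.10% of all probe sets did. Its signal, 4.70 and 4.73 in KO and 4.97 and 5.19 in WT, was below the median of every array. The part of these cells and of interferon in the values of Psmb8, Psmb9 and Psmb10 was not tested.

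The ATPases of the base, which unfold the substrate, had a median log2 fold change of 0.046 over 6 genes. Psmc3 was the highest, with 10.71 and 10.73 in KO and 10.64 and 10.65 in WT, and its KO arrays lay above the WT arrays by 0.070 (SE 0.05, unadjusted p = 0.201, limma). The replicates of Psmc3 differed by 0.021 in KO and 0.011 in WT, and its unadjusted p in the methods' t-test was 0.0282. Psmc2 was the lowest, with 10.38 and 10.42 in KO and 10.44 and 10.45 in WT, and a difference of -0.044. Psmc1, Psmc4, Psmc5 and Psmc6 lay between 0.035 and 0.060.

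The 11 non-ATPase genes of the 19S particle had a median log2 fold change of 0.0088. Psmd6 was the highest, with 9.94 and 9.91 in KO and 9.84 and 9.86 in WT (log2 fold change 0.074, SE 0.05, unadjusted p = 0.187, limma). Psmd13 was the lowest, at -0.046, with 9.66 and 9.63 in KO and 9.66 and 9.73 in WT. Psmd14, the deubiquitinase of the lid, had 0.030, and the ubiquitin receptor gene Psmd4 had 0.0088. The scaffold genes Psmd1 and Psmd2 had 0.048 and 0.037, with both KO arrays above both WT arrays. On the other probe set of Psmd2 the genotypes overlapped, with a fold change of 0.046. Psmd3, Psmd8, Psmd11 and Psmd12 had 0.0075, -0.017, -0.037 and -0.038. Psmd11 had 9.71 and 9.69 in KO and 9.73 and 9.74 in WT. The chaperones that assemble the 19S base, Psmd5, Psmd9 and Psmd10, had 0.083, 0.071 and 0.089. For Psmd10, also named gankyrin, KO was 8.55 and 8.52 and WT 8.40 and 8.49. Psmd9 had 7.68 and 7.87 in KO and 7.73 and 7.68 in WT, so the higher KO mean came from KO replicate 2.

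Of 32 further genes of the proteasome pathway, 25 had a value, and 0 of these had an unadjusted p under 0.05 in limma. Their median log2 fold change was 0.022. The largest difference was that of Psme2, a subunit of the interferon-inducible PA28 activator, with 8.86 and 8.97 in KO and 8.83 and 8.68 in WT (log2 fold change 0.16, SE 0.08, unadjusted p = 0.093, limma). Its partner Psme1 had -0.042, with overlapping genotypes. The difference in Psme2 was 0.24 without WT replicate 1 (unadjusted p = 0.0446, limma) and 0.084 without WT replicate 2 (unadjusted p = 0.369, limma). Without KO replicate 2 it was 0.10 (unadjusted p = 0.328, limma). Psme4, the PA200 activator known for its role in spermatogenesis, had -0.016.

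Among the chaperones of 20S assembly, Psmg2 had 10.00 and 10.01 in KO and 9.94 and 9.86 in WT, a difference of 0.10, and Pomp, the maturation protein, had 0.0048. Of the proteins bound to the particle, Sem1 of the lid had 0.064 and the deubiquitinase gene Uchl5 had -0.021. Nfe2l1, which encodes the factor that raises subunit transcription when the proteasome is inhibited, had 0.051, with 9.11 and 9.22 in KO and 9.17 and 9.06 in WT. Ufd1, a cofactor of the segregase VCP, had -0.062. Of the genes of ODC degradation, Odc1 had -0.013, Oaz2 0.061, Oaz3 of spermatids -0.025 and Azin1 -0.064. None of these 4 had an unadjusted p under 0.05 in limma, and Oaz1 shares its probe sets with a pseudogene and has no value.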

How the data were processed

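Testes of Azin2 KO and WT mice were profiled on 4 Affymetrix Mouse Gene 1-1-ST arrays, grouped by the sample titles. The authors deposited RMA signals on the log2 scale, 1 value per probe set and array, and the submitters' processing notes name Partek 6.13.1224. The genome build, annotation release and summarization level are not given in the sources used here. The labels describe cRNA from a 3'IVT kit, and the methods describe fragmented cDNA.

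Of 35556 probe sets, 23099 are paired with a gene by the platform annotation, 21218 with 1 symbol and 1881 with several. Those with several entered the fit, but no gene takes its value from them. The genotypes were compared with lmFit and eBayes of limma 3.58.1 (R 4.3.3, no trend, two-sided) over these 23099, with Benjamini-Hochberg adjustment. Differences within an array were compared by an exact permutation test of 6 arrangements. The study's threshold was a fold of 1.5 at p under 0.05. The code was tested on simulated data. With 2 arrays a genotype, the number of arrays limits the precision, and RMA and any quantile step can hide a shift common to all genes.

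The rule for genes named with their values took Psma7, Psma8, Psmb5 to Psmb11, any subunit at an unadjusted p under 0.05, the 3 highest and 3 lowest fold changes, the extremes of each class and pathway list, and Azin2. Further pathway genes are mostly given by their fold change. The subunits, gene lists and motifs were chosen with earlier results of these data known. The alternatives were other eBayes priors, the methods' t-test, other normalizations, filters and probe set rules, the replicate block and leaving out each array. The check of pairing by replicate number is given with them. No column of other samples was present.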

Additional observations from a re-analysis of the deposited data

How the results depend on the processing

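The counts of subunit genes past an adjusted p of 0.05, and past the study's threshold, were 0 in limma and under every alternative, a fold of 1.2 included. Those at an unadjusted p under 0.05 were 3 with the methods' t-test (1154 of all probe sets) and 0 to 3 with 1 array left out: Psmb1 without KO replicate 2 (1133 of all probe sets), and Psma2, Psmd5 and Psmd7 without WT replicate 1 (1205). The further pathway genes gave 0 to 1, and Psme2 passed without WT replicate 1. The median over the subunits ran from 0.0098 to 0.056 with 1 array left out. The change in Psma8 minus Psma7 ran from -0.11 to 0.14, and that of immunoproteasome minus constitutive subunits from -0.057 to 0.027. Psmb8 minus Psmb5 alone gave 0.054 and Psmb9 minus Psmb6 alone -0.080. Azin2 stayed at -2.83 over every probe set (adjusted p = 0.0707) and with the methods' t-test (adjusted p = 0.868), and ran from -2.94 to -2.72 with 1 array left out. The cause of these changes was not tested.

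With the replicate block, 0 subunit genes and 692 of all probe sets had an unadjusted p under 0.05, against 946 without it. The gaps between replicates 1 and 2 correlated at -0.082 between KO and WT over all probe sets tested, and at -0.32 over the subunit genes. With a single gap per genotype, these values cannot show whether samples of the same number shared a litter or day. Of 347 values under alternatives of the 27 genes other than Azin2 that the naming rule gave, 4 passed an unadjusted p of 0.05 where the reported value did not, and 24 turned sign, none of them past that threshold. Centring each array on its median moved the median of all probe sets from 0.011 to 0.020. Signal near or below the array median limits what can be read from Psmb8, Psmb9 and Psmb11. The same limit touches Psmb10, which was not above the median of the probe sets paired with a gene.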
